A study of Homo sapiens with 2 samples.

Results

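Peaks in long coding exons were the NUDT21 eCLIP peaks whose midpoint lay in protein-coding sequence (CDS), in no 5′ or 3′ untranslated region (UTR) of any coding transcript, and in an annotated exon of at least 300 nt. There were 2431 such peaks (the members below) of 20499 in the deposited list. They made up the larger share of the 4355 peaks in CDS and no UTR. The other 1924 lay in exons that were all shorter than 300 nt, here called short coding exons, and serve as the comparison. Exons came from all GENCODE 44 transcripts on hg38, and no measured value entered the choice.

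The series held 1 library made with a NUDT21 antibody and 1 input library, both from J-Gamma1 cells, a Jurkat subline of T-cell acute lymphoblastic leukemia (T-ALL) that is known to lack PLCG1. The labels name no other treatment. Crosslinking used 254 nm UV-C light on ice, 400 mJ each time, and was followed by 15 min of lysis and by digestion with 40 U of RNase I for 5 min. Only the peaks of the antibody library entered the analysis, and the input library was not analysed here. One cell line and 1 antibody library without a replicate allow no test of a difference, so the values below are descriptions, and every interval is an exact 95% interval that covers counting error only. The list held no read totals, so the depth was unknown, and it held no strand, so each peak took the strand of the gene at its midpoint. Only 2 members lay in CDS of genes on both strands. Of 12 T-cell marker genes 6 held at least 1 peak anywhere in the list (CD3E, CD247, ZAP70, TCF7, LEF1 and BCL11B), and 0 of 10 markers of other cells did. The T-cell markers CD3D, CD3G, CD2, CD5, CD7 and LCK held none. The share of all genes with a peak is not given here, so these counts do not identify the cells.

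NUDT21 is the RNA-binding subunit of cleavage factor I, a complex that binds UGUA upstream of poly(A) sites and helps to select where a transcript is cleaved and polyadenylated. Its best-known contacts lie in 3′UTRs. Most human internal coding exons are short, and the unusually long ones are often found in large chromatin regulators, mitotic proteins and splicing proteins rich in serine and arginine, while terminal exons and the exons of genes without introns are long as a rule. In eCLIP, UV light joins a protein to the RNA it touches, so that a peak marks recovered RNA and not, by itself, a cleavage site.

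The sequences carrying the results are given first, read from hg38 on the strand of the gene, 5′ to 3′, as DNA, so that T stands for U. The first set shows the central 30 bases of the 4 members with a false discovery rate (FDR) under 0.05. Capitals mark runs of A and G of at least 4 bases. The first of the SRRM1 windows crosses the 3′ end of its coding segment into sequence annotated as intron in the coding transcript.
RPS24, chr10:78037262-78037291: agtcAGGGGGActgcAAAGGccaatgttgg
SRRM1, chr1:24666911-24666940: accaccacgacGAAGGtactttgtcaaata
ARGLU1, chr13:106544074-106544103: aaactAGAAcAAGAAcgacaacgtcaacaa
SRRM1, chr1:24669354-24669383: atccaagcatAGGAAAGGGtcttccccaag

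The second set shows the motif known for NUDT21, TGTA in capitals, in 7 members of high fold enrichment where the motif and the bases around it lay inside the coding segment. The TGTA of the RPS24 peak lay too near the segment's edge for this.
SRRM1, chr1:24670251-24670280: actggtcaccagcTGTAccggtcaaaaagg
PRRC2C, chr1:171540822-171540851: ctgcagttaagacTGTAaaccaacagacta
MKI67, chr10:128105305-128105334: acccagcagcaagTGTAactggtagcaaga
SSB, chr2:169807005-169807034: ctgctaagaaattTGTAgagacccctggcc
ZC3H13, chr13:45969780-45969809: agaaagtttcttcTGTAgataaacagagag
MKI67, chr10:128107993-128108022: tcaggaaagcagaTGTAgagggagaactct
PNN, chr14:39180680-39180709: atcagcacaatgaTGTAgaaatagaggaag

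The third set shows GAAGAA, in capitals, which was more frequent inside tall members than around them. It shows the member of highest fold enrichment with this word inside a coding segment of at least 300 nt in each of 6 genes.
PRRC2C, chr1:171540860-171540889: ccagtagtcaaaGAAGAAaaacaacctgag
KTN1, chr14:55612519-55612548: agcagctgcctcGAAGAAGAAaccagggca
MKI67, chr10:128105075-128105104: gcagacgtagagGAAGAAtccttagcactc
PRPF38B, chr1:108699797-108699826: gtggcagtcaagGAAGAActgacagtgttg
DIDO1, chr20:62909706-62909735: tccaagtggcaaGAAGAAactcaagatctt
ZC3H13, chr13:45969811-45969840: tcaaggcgctacGAAGAAcaggaactcaag
In PRRC2C and ZC3H13, and for the first of the MKI67 windows, the TGTA and the GAAGAA come from the same member.

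The label "long coding exon" held for part of the members. In 1647 of them (67.7%, 65.9% to 69.6%, in 871 genes) the coding segment itself, that is the stretch of CDS within 1 exon, was at least 300 nt long, and its median length was 1212 nt. In 327 members (13.5%) the exon of a coding transcript was long but its coding segment was shorter, with a median segment of 176 nt in a median longest exon of 1003 nt. Of these, 199 lay in last exons and 86 in first exons, where a UTR takes up the rest of the exon. In the remaining 457 members (18.8%) no transcript that codes at the midpoint had a long exon there. The long exon belonged to a transcript that does not code at that place, which was an intron-retaining transcript for 375 of them, and the median coding segment was 150 nt. Members of the first kind are called members in long coding segments from here on.

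**Figure D1:**
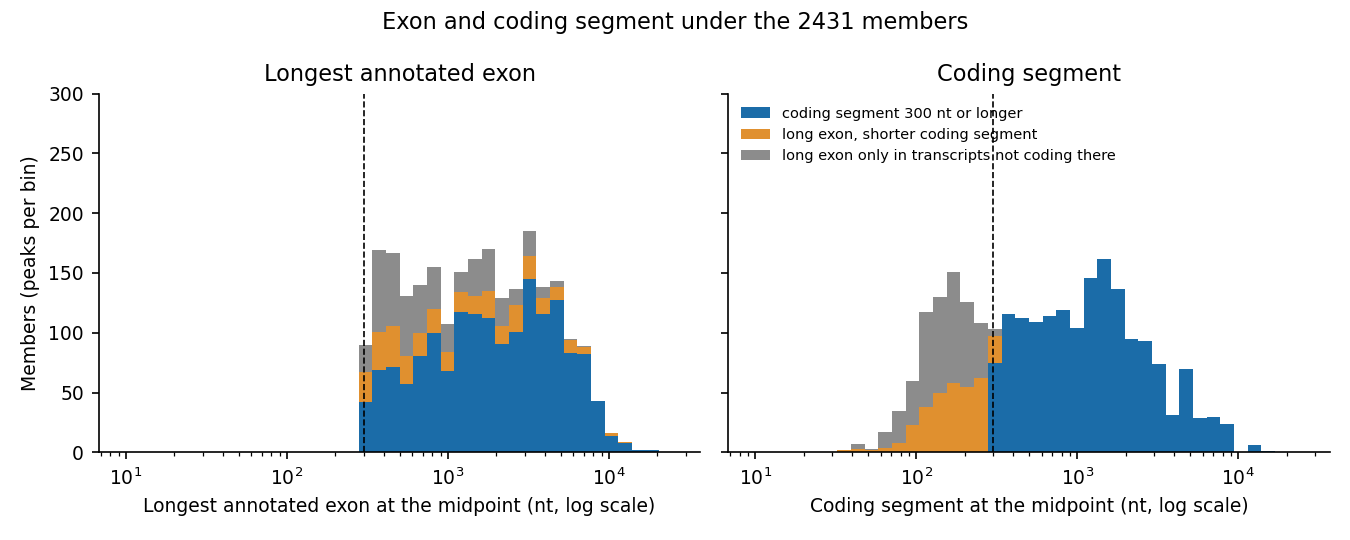
Members per bin by the length of the longest annotated exon (left) and of the coding segment at the peak midpoint (right), both in nt on a log scale, with the 3 kinds of member stacked. The dashed line marks 300 nt. All 2431 members lie at or past it on the left, as the rule requires, while 327 and 457 members lie below it on the right.

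The members were taller than the peak list as a whole but not taller than peaks in short coding exons. Heights are given as the authors' fold enrichment, which sets the pileup of reads over its local background, and as steps of the deposited score, which takes whole multiples of 0.228. The median fold enrichment of the members was 2.27, with quartiles at 1.91 and 2.63 and a range of 1.17 to 6.89. Their median score was 7 steps and their median length 90 nt. Of the members 1904 (78.3%, 76.6% to 79.9%) reached 5 steps, here called tall, against 42.3% of all peaks and 85.4% (83.7% to 86.9%) in short coding exons. A fold enrichment of at least 2 was reached by 1684 members (69.3%), beside 38% of all peaks and 80.0% in short coding exons. An FDR under 0.05 was given to 4 members (0.165%, 0.0448% to 0.421%), beside 0.0927% of all peaks and 4 peaks (0.208%) in short coding exons. By the deposited FDR, nearly all members and nearly all peaks of the list thus did not pass this limit. Just inside the length limit, the 117 members with a longest exon of 300 to 349 nt had a median fold enrichment of 2.27. Just outside it, the 192 peaks with 250 to 299 nt had a median of 2.37.

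Within the members, height varied with the kind of exon. In long coding segments of internal exons 828 of 987 members (83.9%, 81.4% to 86.1%) were tall. In last exons 313 of 481 (65.1%, 60.6% to 69.3%) were, in first exons 59 of 104 (56.7%, 46.7% to 66.4%), and in genes with a single exon 52 of 75 (69.3%, 57.6% to 79.5%). The intervals of internal exons did not overlap those of the 3 other kinds. Peaks of 1 exon are not independent, so these intervals are narrower than the true error. MAP1A exon 5 alone held 24 members, all tall. Members whose long exon was annotated only in transcripts not coding there were tall in 86.4% (82.9% to 89.4%), which overlapped the interval of short coding exons. By segment length the share did not follow a single direction. It was 80.5% at 300 to 499 nt, 67.9% (63.6% to 72.0%) at 1000 to 1999 nt and 87.8% (80.4% to 93.2%) in segments of 5000 nt or more. The 115 members in the last of these classes came from few exons, among them those of MAP1A, MKI67 and SON.

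**Figure D2:**
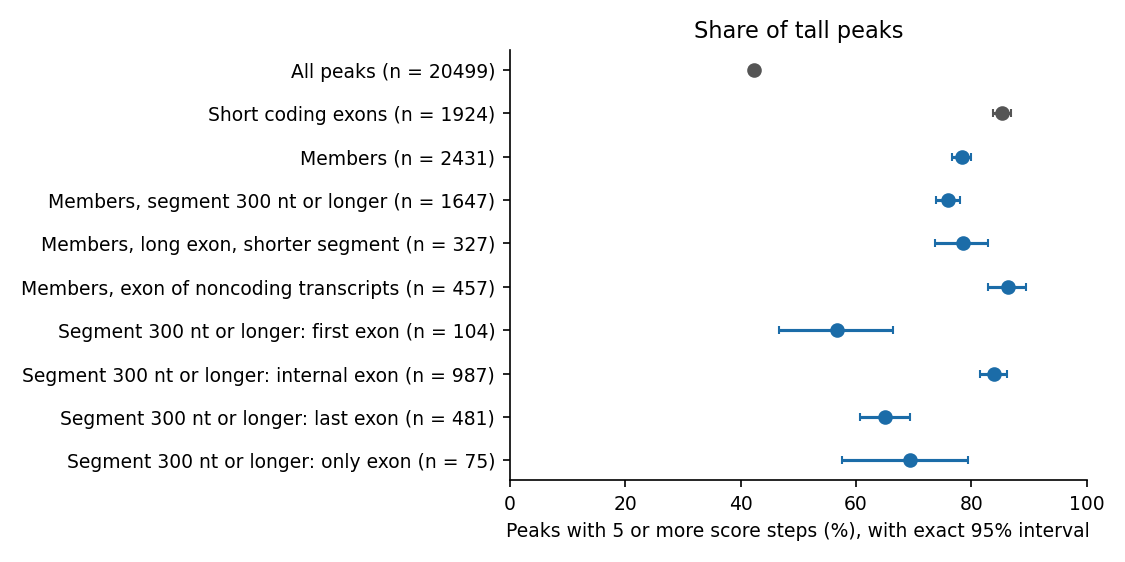
Percentage of peaks with 5 or more score steps in all peaks, short coding exons, all members and kinds of member, with the number of peaks in each. Points are shares and bars exact 95% intervals. Members in internal exons (83.9%) stand above those in last (65.1%) and first exons (56.7%).

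By fold enrichment, the highest members lay in RPS24, SRRM1 and ARGLU1. The highest fold enrichment, 6.89 with a score of 36 steps, was that of a 160 nt peak in RPS24 (chr10:78037197-78037356), which encodes a protein of the small ribosomal subunit. Its coding segment in exon 4 of 6 measured 111 nt, and the exon of 690 nt that made it a member is that of a transcript not coding there. SRRM1, which encodes a splicing coactivator, held the second, at 6.30 and 25 steps (chr1:24666887-24666963), with its midpoint on the last base of the 111 nt coding segment of exon 13. ARGLU1, a splicing and transcription cofactor rich in arginine and glutamate, held the third, at 6.0 and 27 steps (chr13:106544027-106544149), in the 165 nt coding part of its last exon. Of the 4 members with an FDR under 0.05, the other SRRM1 peak (chr1:24669240-24669496, fold enrichment 5.20, 20 steps) was the one in a long coding segment, exon 14, of 465 nt. A further SRRM1 peak in exon 15 reached 5.23 with an FDR of 0.125. Together 7 members lay in SRRM1, of which 2 were in long coding segments.

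The other members among the 15 with the highest fold enrichment had an FDR between 0.125 and 1. PRRC2C, an RNA-binding protein of stress granules, held 2 of them, at 4.86 in exon 16 with a coding segment of 2259 nt and at 4.65 in exon 2. KTN1, a receptor for kinesin on the endoplasmic reticulum, reached 4.85 in exon 2. The RNA-binding proteins HNRNPDL and YBX1 reached 4.83 in the first exon and 4.67 in the 303 nt exon 5. HMGB2, a chromatin protein, reached 4.81 with a score of 39 steps, 1 below the largest number of steps among the members, the 40 of a peak in HSP90AB1, a chaperone, whose fold enrichment was 1.68. MKI67, the proliferation marker Ki-67, reached 4.67 in exon 13. PRPF38B, a splicing factor, reached 4.48 in its last exon, and the corepressor NCOR1 4.44 in the 361 nt exon 31. The order among these is that of 1 library, and neighbouring values differ by a few hundredths.

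The members were spread over 1369 genes. Of these, 899 genes (65.7%) held 1 member, 267 held 2 and 203 held 3 or more. The 63 genes with 5 or more held 528 members (21.7%). MAP1A, a microtubule-associated protein, and MKI67 held most, 25 each. CENPF, a kinetochore protein, held 22, KMT2D, a histone H3 lysine methyltransferase, and RESF1, a regulator of retroelement silencing, 16 each, and ASPM, a spindle pole protein, 15. KMT2A, another histone methyltransferase, NCOR1 and SON, a splicing cofactor, held 12 each. BPTF, a subunit of a chromatin remodeler, held 11, and so did FAT1, a cadherin. All members of these 11 genes were tall, beside 78.3% of all members. Median fold enrichment ranged from 2.36 in KMT2D to 3.36 in NCOR1. In NCOR1 only 4 of the 12 members lay in long coding segments, while in SRCAP and YLPM1 all 10 of 10 did. SMC3, a cohesin subunit, held 9 members, 0 of them in a long coding segment.

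Single exons carried rows of members. MAP1A exon 5 (chr15:43521324-43529508, 8185 nt) held 24, of fold enrichment 1.99 to 3.25. Peaks covered 44.7% of it, where covered shares count every peak in the list, members or not. MKI67 exon 13 (chr10:128102579-128109423, 6845 nt) held 17 with a median of 3.43 and a range of 2.09 to 4.67, and 59.3% of it was covered. RESF1 exon 4 (chr12:31980956-31985957, 5002 nt) held 15 with 46.8% covered, and SON exon 3 (chr21:33549476-33555391, 5916 nt) held 11 with 30.4% covered. In CENPF, exon 13 (2844 nt) held 10 and exon 12 (3404 nt) held 9, and 66.6% and 44.6% of these exons were covered. The rows were not even along the exons. In ASPM exon 18 the first of 8 members began 1863 nt into the 4755 nt segment, and in BOD1L1 exon 10 the first of 8 began 1968 nt into 6139 nt.

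**Figure D3:**
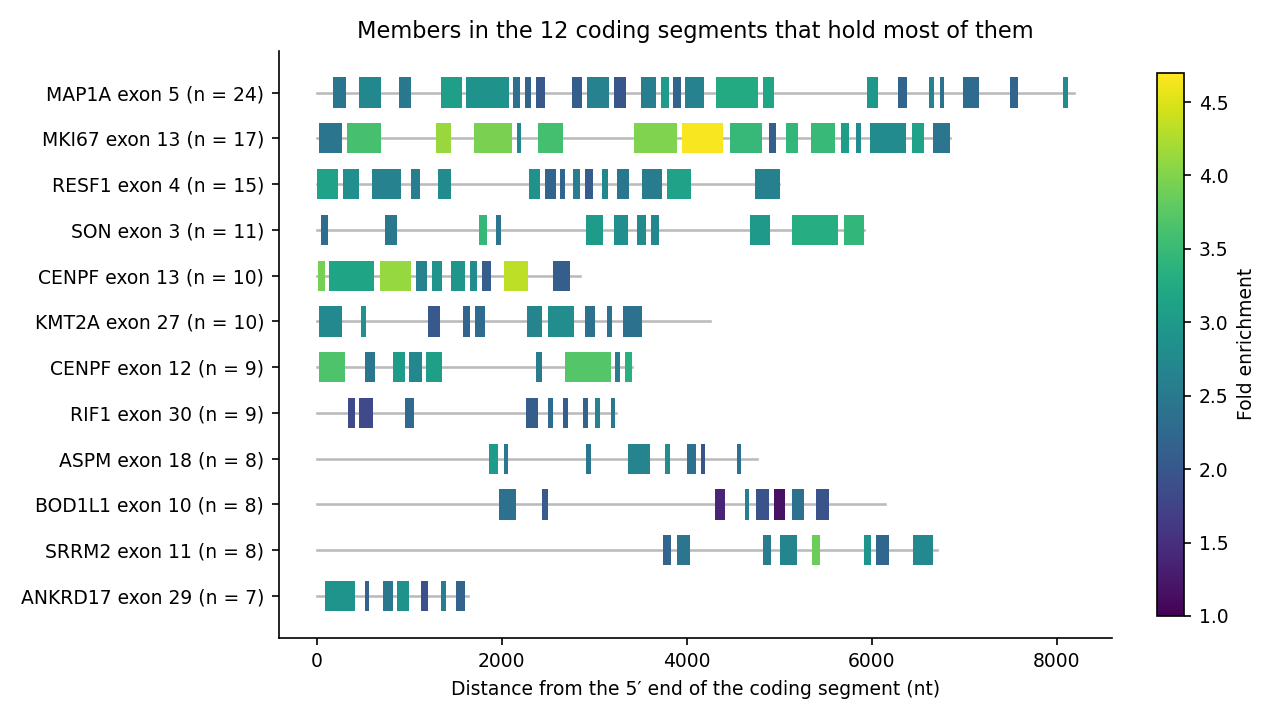
Members along the 12 coding segments that hold most of them, by distance from the 5′ end of the segment in nt. Grey lines span the coding segment, boxes are members from start to end, and colour gives fold enrichment. Peaks that are not members are not drawn. MAP1A and MKI67 hold members along nearly their whole length, while ASPM, BOD1L1 and SRRM2 begin with stretches without members.

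Counts of neighbouring peaks depended on how the caller cut them. Of 669 gaps between neighbouring members of the same long coding segment 213 (31.8%) were at most 100 nt, and the smallest was 47 nt. Merging members across gaps of up to 100 nt left 13 in MAP1A exon 5, 8 in MKI67 exon 13, 8 in RESF1 exon 4 and 3 in CENPF exon 13, and reduced the 1647 members in long coding segments to 1434. The covered share of an exon, given above, does not count peaks and leaves these gaps out.

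The longest segments were not always those with most members. The members in long coding segments lay in 978 segments of 301 to 15793 nt (median 855 nt). Of these 626 held 1 member and 131 held 3 or more. The longest, C2orf16 exon 5 at 15793 nt, held 1 member of 2 steps. ARMCX4, with 6873 nt, had 4 members of 1 step each. Among the 104 segments of at least 1000 nt with 3 or more members, those with most members per kb were ANKRD17 exon 29, with 7 in 1634 nt (4.28 per kb), KMT2D exon 11, with 6 in 1539 nt (3.90), the single exon of TMEM185B, with 4 in 1053 nt (3.80), CENPF exon 13 (3.52) and HTATSF1 exon 9, with 4 in 1206 nt (3.32). ANKRD17 is an ankyrin repeat protein and HTATSF1 a splicing factor of the U2 particle. All 31 members of these 5 segments were tall, beside 76.0% of all members in long coding segments.

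Over all annotated genes, longer coding segments of the canonical transcript held a member more often. A longer segment has more bases in which a midpoint can fall, and these shares are per segment and not per base. A member was found in 4.17% (3.68% to 4.71%) of 5921 segments of 300 to 499 nt, in 12.3% (11.0% to 13.7%) of 2267 segments of 1000 to 1999 nt and in 18.9% (11.4% to 28.5%) of 90 segments of 5000 nt or more. Density per base was counted in a chosen set of genes, so it cannot be set against these shares. In genes with at least 1 peak in CDS, with bases in any UTR left out, density was 0.956 peaks per kb (0.911 to 1.00) in segments of 100 to 199 nt, 1.08 (0.961 to 1.22) at 300 to 499 nt, 1.03 (0.937 to 1.12) at 1000 to 1999 nt, and 0.773 (0.692 to 0.861) at 2000 to 4999 nt. Tall peaks in the same genes stood at 0.814 per kb (0.772 to 0.857) at 100 to 199 nt and 0.890 (0.780 to 1.01) at 300 to 499 nt. They stood at 0.703 (0.630 to 0.783) at 1000 to 1999 nt, 0.587 (0.517 to 0.664) at 2000 to 4999 nt and 0.677 (0.552 to 0.823) above that. In the 1084 genes with both kinds of segment, long segments held 1383 peaks at 0.940 per kb and short ones 1302 at 0.757, a ratio of 1.24 (1.15 to 1.34). For internal exons alone the ratio was 1.40 (1.28 to 1.53), and for tall peaks 1.16 (1.07 to 1.27). These ratios are for genes with both kinds of segment only, and not for all genes with a coding peak. These genes were taken because they held a peak, so the densities describe genes with coding peaks and not all genes. RNA levels were not measured here.

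**Figure D4:**
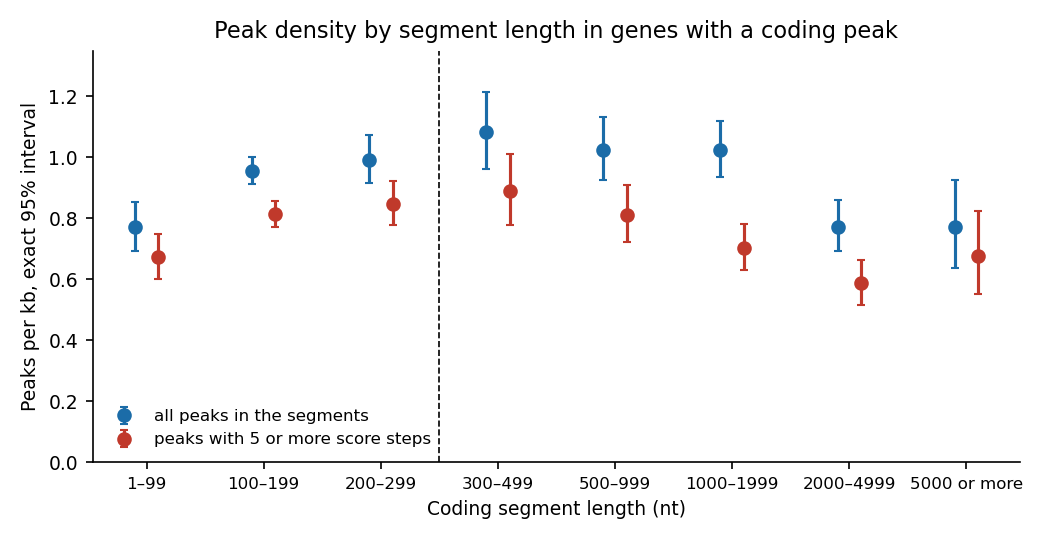
Peaks per kb of coding segment, by segment length in nt, in genes with at least 1 peak in CDS. Blue points are all peaks in CDS and no UTR, red points those with 5 or more score steps, and bars exact 95% intervals. The dashed line marks 300 nt. Density is 0.773 per kb at 2000 to 4999 nt and 1.08 at 300 to 499 nt.

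Along the coding segment the position of the members depended on which of them were counted. In long coding segments 888 of 1647 midpoints (53.9%, 51.5% to 56.3%) were 3′ of the middle. The share was 55.5% (52.4% to 58.7%) in internal exons and 48.9% (44.3% to 53.4%) in last exons, where the interval includes an even split. The first and last 100 nt of these segments each made up 8.16% of their bases. The 5′ edge held 7.59% (6.36% to 8.98%) of the members and the 3′ edge 13.1% (11.5% to 14.8%). In internal exons with segments of at least 500 nt the 3′ edge held 7.95% (6.17% to 10.1%) of 792 members, beside 6.46% of the bases. Over all members, short segments included, 58.3% (56.3% to 60.3%) lay 3′ of the middle. With peaks that lay whole inside 1 coding segment the share was 51.3% (49.0% to 53.6%), which includes an even split.

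The gene groups differed in how many of their genes held members. Of 10132 genes with a canonical coding segment of at least 300 nt, 857 (8.46%) held a member in one. The lists below were drawn up with earlier results of these data known, several of them for their long exons, so their shares are descriptions. Among 38 chromatin genes with such a segment 22 held a member (57.9%, 40.8% to 73.7%). Counting every long exon, 129 members lay in 26 of the 40 genes, with a median fold enrichment of 2.38. Of these 122 were tall (94.6%), beside 78.3% of all members. Besides KMT2D, KMT2A, NCOR1 and BPTF these were led by SRCAP, a remodeler that places histone variants, with 10 members, the BOD1L1 gene with 8, and the ARID1A, CHD8 and SETD2 genes with 7 each. Among genes of genome maintenance and mitosis 11 of 19 did so (57.9%, 33.5% to 79.7%), with 96 members and a median of 2.58, and MKI67, CENPF and ASPM held 62 of these. Genes listed with a long segment and 0 members were also found in this group, among them REV3L (4162 nt), CASP8AP2 (3130 nt) and MDC1 (2478 nt). Of the 20 genes listed, 17 held at least 1 peak somewhere in the gene, so 0 members need not mean 0 peaks.

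Members in genes of SR-related and splicing proteins had the highest median of these lists, by score steps and by fold enrichment. Of 19 with a long segment 11 held a member (57.9%, 33.5% to 79.7%), and 64 members lay in 14 genes. All 64 were tall, beside 78.3% of all members. Their median was 13 steps and their median fold enrichment 2.69, against 7 steps and 2.27 over all members. SON held 12, SRRM2 10, SCAF11 7 and SRRM1 7, while NKTR, with a segment of 2883 nt, and PPIG, with 1111 nt, held 0. All 24 genes listed held at least 1 peak somewhere in the gene, so 0 members does not mean 0 peaks. Genes of the cleavage and polyadenylation machinery held 20 members, in 5 of 13 genes with a long segment (38.5%, 13.9% to 68.4%) and 1 further gene. RBBP6, a ubiquitin ligase of the 3′ processing complex, held 8, the highest at 3.47 in exon 15, and PCF11, which binds the tail of RNA polymerase II, held 5, the highest at 2.99. WDR33, which recognises AAUAAA, held 1, at 3.26 in exon 6.

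T-ALL genes held 11 members in 7 of 18 genes. All 11 members were tall, beside 78.3% of all members. Of the 11 with a long segment 5 held a member in one (45.5%, 16.7% to 76.6%). ETV6, a transcriptional repressor, held 3, the highest at 2.84 in its last exon. BCL11B, a transcription factor of T-cell commitment, held 2, with 2.53 in the 2045 nt coding part of exon 4, and FBXW7, a ubiquitin ligase for NOTCH1, held 2. GATA3 held 1 at 2.27 in exon 3 and TCF7 1 at 2.51 in exon 1, while DNM2, a dynamin, held 1 at 1.95. NOTCH1, with a segment of 1488 nt, RUNX1 and MYB were among the genes with 0 members. At least 1 peak somewhere in the gene, member or not, was held by 14 of the 18. UGUA was present in 0 of the 11, beside 19.3% of all members, and 11 members are too few to set against that share. The C2H2 zinc finger genes, whose finger arrays usually lie in 1 long last exon, stood lower than the lists above. They were taken by symbol, which also takes in a few genes with other kinds of finger. Of 585 with a long segment 69 held a member (11.8%, 9.29% to 14.7%), beside 8.46% of all genes with such a segment. Of their 130 members 70 were tall (53.8%), and the median fold enrichment was 1.87. ZNF281 was highest, at 3.27 in its last exon, and ZNF217 held most, 7. Genes with 1 exon held 65 members in 40 of 1029 genes with a long segment (3.89%, 2.79% to 5.26%), with TAF7, a subunit of the general factor TFIID, highest at 3.90. At least 1 peak somewhere in the gene was held by 214 of the 605 zinc finger genes and by 64 of the 1117 genes with 1 exon. Most genes of these 2 lists thus held no peak of any kind.

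UGUA was not more frequent in the members than in the coding sequence around them. On the strand of the gene it occurred 594 times in 289 kb of member sequence within coding segments, 2.06 per kb. In the parts of the same segments outside every peak it occurred at 2.33 per kb, a ratio of 0.881 (0.804 to 0.964). For long coding segments alone the ratio was 0.903 (0.817 to 0.997), and for tall members in them 0.944 (0.833 to 1.07). The 11 other orders of the same bases had ratios of 0.791 to 0.857 over all members, with 0 of them above UGUA. Among tall members in long coding segments they ranged from 0.795 to 0.946, with 1 above UGUA. In short coding exons the ratio of UGUA was 0.933 (0.798 to 1.09). UGUA was present in 470 members (19.3%, 17.8% to 21.0%), the poly(A) signal AAUAAA in 93 (3.83%, 3.10% to 4.67%) and both in 40 (1.65%, 1.18% to 2.23%). The ratio for AAUAAA was 0.978 (0.775 to 1.23).

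UGUA also sat in the reading frame much as it did outside the peaks. In long coding segments 50.3% (45.7% to 54.9%) of the UGUA words in peaks began at the third codon position, against 46.1% outside. The first position had 29.9% (25.8% to 34.2%) against 32.9% and the second 19.8% (16.4% to 23.7%) against 21.0%.

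Base composition under the members also differed from the rest of their exons. A was higher under tall members and lower under low ones, while U was lower under both. In long coding segments tall members had 30.5% A against 27.6% outside and 19.3% U against 21.6%, while GC was 50.2% against 50.8%. Purines made up 55.1% in them and 52.8% outside. The 395 low members, of 4 or fewer steps, had 23.5% A against 26.3% outside, and 19.9% U against 20.9%, with 56.6% GC against 52.8%. GAAGAA, a purine word known from splicing enhancers in exons, occurred 1.92 times per kb in tall members and 1.38 outside, a ratio of 1.39 (1.21 to 1.59). In low members its ratio was 0.748 (0.559 to 0.986). Over members of every height in long coding segments it was 1.21 (1.07 to 1.36), and over peaks of every height in short coding exons 1.17 (0.996 to 1.39), and these intervals overlap. Overlapping copies of the word were each counted, and copies within the same peak are not independent. The intervals for GAAGAA are therefore narrower than the true error. Over all members purines made up 53.9% against 52.7%. Composition also moved with the kind of exon. Median GC of members in long coding segments was 67.5% in first exons, 58.9% in single-exon genes, 51.8% in last exons and 48.7% in internal exons. First exons, which had the lowest share of tall members, were highest in GC and internal exons, with the highest share, were lowest, and the part of GC in recovery and sequencing was not tested.

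The codons under the tall members encoded more charged residues, aspartate aside, and fewer aromatic and aliphatic ones. In long coding segments lysine made up 7.63% of the codons under tall members and 6.30% outside, a ratio of 1.21 (1.17 to 1.26). Glutamate had 9.13% against 7.83%, a ratio of 1.17 (1.13 to 1.20), arginine a ratio of 1.12 (1.08 to 1.17) and proline 1.11 (1.07 to 1.14). The charged residues together had 27.7% against 24.5%, but aspartate alone stood at 0.985 (0.941 to 1.03). Phenylalanine was lowest, with 2.18% against 3.04% and a ratio of 0.717 (0.671 to 0.766), and the aromatic residues together had a ratio of 0.765 (0.730 to 0.801). Cysteine stood at 0.794 (0.731 to 0.861). Over all members in long coding segments the ratios were nearer to 1, with lysine at 1.09 (1.06 to 1.13), glutamate at 1.06 (1.03 to 1.09) and phenylalanine at 0.828 (0.788 to 0.869), while proline was the same at 1.11 (1.08 to 1.14). In short coding exons lysine stood at 1.15 (1.09 to 1.20) and phenylalanine at 0.821 (0.763 to 0.883), so the direction for these residues was shared by both lengths of exon. Codons of 1 peak and of repeats within 1 protein are not independent, so these intervals are narrower than the true error. Base composition and encoded residues come from the same letters and cannot be told apart here.

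**Figure D5:**
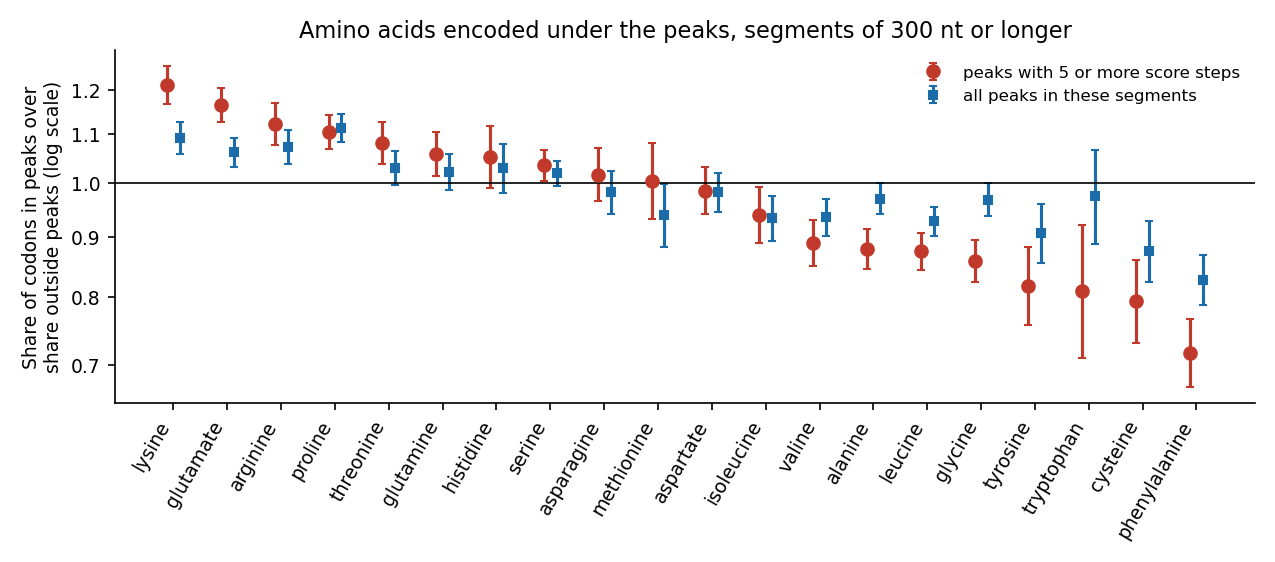
Share of codons for each amino acid under the peaks over its share outside every peak in the same coding segments of at least 300 nt, on a log scale, with exact 95% intervals. Red circles are peaks with 5 or more score steps, blue squares all peaks in these segments, and residues are ordered by the red ratio. Lysine is highest at 1.21 and phenylalanine lowest at 0.717.

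Low members had a further property. The most frequent distance within 1000 nt between the starts of any pair of peaks in the list was 476 nt. Of the 527 members of 4 or fewer steps 206 (39.1%, 34.9% to 43.4%) had another peak starting exactly 476 nt from their own start. Of the 1904 tall members 37 (1.94%, 1.37% to 2.67%) did, beside 19.6% of all peaks and 5.61% (4.63% to 6.74%) in short coding exons. Low members were also longer, with a median of 200 nt against 81 nt. How the spacing arose was not tested.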

How the data were processed

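The peaks of the NUDT21 antibody library were analysed, and the input library was not used here. Per the methods, reads were trimmed with fastp, duplicates removed by unique molecular identifier, and peaks called with MACS2 on hg38, with local background windows of 1000 and 10000 nt. The methods also name a q-value limit of 0.05, while the deposited FDR was under 0.05 for 0.0927% of all peaks. The aligner and the role of the input in peak calling are not given in the sources used here. The deposited fold enrichment sets pileup over local background as a ratio, the deposited p-value and FDR are those of the caller, and the deposited Score is a pileup signal whose unit is not stated. Without strand or replicates, a peak's gene was set by position and its reproducibility is unknown. Columns of per-sample values left out numbered 0.

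Midpoints were placed on GENCODE 44 (all transcripts, readthrough genes left out, the stop codon counted as CDS). The host was the longest coding segment at the midpoint. Sequence outside peaks was the rest of the same segments. Windows of 30 bases were printed. Shares have exact Clopper-Pearson intervals and ratios of counts exact conditional intervals, at 95%. Named were members with FDR under 0.05, the 15 highest by fold enrichment, the 10 genes with most members, the 5 densest segments of at least 1000 nt, and up to 4 members per list; other genes were named after their values had been seen, and a few items that the rule names are not reported here. Members and lists were chosen with earlier results of these data known. The split by height, GAAGAA, edges, gaps and residues were added after the list had been seen. Counting was tested on simulated data. Counting used pysam 0.24.0 and pandas 2.3.3 in Python 3.11.15, intervals scipy 1.17.1, arrays numpy 2.4.6 and plots matplotlib 3.10.9.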

Additional observations from a re-analysis of the deposited data

How the results depend on the processing

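The UGUA ratio stayed below 1 under the 13 alternatives tried that gave a value, from 0.818 (UGUAA or UGUAU) to 0.938 (exons of at least 1000 nt). Its interval included 1 with 5 or more steps (0.815 to 1.02), with a fold enrichment of at least 2 (0.827 to 1.04) and with exons of at least 1000 nt (0.845 to 1.04). With an FDR under 0.05 it has no finite value, since the other side of the ratio is 0. The other results that are shares moved by more than their counting interval under several choices. The number of members has no such interval. Members numbered 4 at an FDR under 0.05 and 1526 with a longest exon of at least 1000 nt, and 3319 without nonsense-mediated decay transcripts, whose UTRs overlap CDS. The share with 5 or more score steps was 100% with a fold enrichment of at least 2 and with an FDR under 0.05, where the limits select for height. It was 76.1% with exons of at least 1000 nt, 76.0% with coding segments of at least 300 nt, 76.4% with exons of protein-coding transcripts of the same gene, 80.7% without nonsense-mediated decay transcripts and 80.8% with the whole peak inside 1 segment. Purines made up 55.3% in peaks of 5 or more steps, 55.4% at a fold enrichment of at least 2, 57.3% at an FDR under 0.05, 53.7% in coding segments of at least 300 nt, 54.3% without nonsense-mediated decay transcripts, 54.3% in the central 100 nt and 46.1% on the opposite strand, as its construction requires. The share 3′ of the middle was 60.4% in peaks of 5 or more steps, 60.6% at a fold enrichment of at least 2, 75% of 4 peaks at an FDR under 0.05, 55.3% with exons of at least 1000 nt, 53.9% with coding segments of at least 300 nt, 55.1% with exons of protein-coding transcripts and 51.3% with the whole peak inside 1 segment. Where no construction is named, the cause was not tested. No paired analysis was possible because 1 antibody library alone was analysed.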
